A study of Mus musculus with 20 samples.

Results

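Time point 3 of a glutamine experiment in Hepa1-6 cells, a mouse hepatoma line, was measured on 2 of the 20 arrays of the series, titled Timepoint3 and Timepoint3r and called the first and the second array here. Each array compared RNA of glutamine-varied flasks with RNA of constant-glutamine flasks. The varied flasks received medium without glutamine at the start and at 48 h, and medium with 4 mM glutamine at 24 h and 72 h, over 96 h in all. The constant flasks received 4 mM glutamine at every exchange, and both kinds of flask held 25 mM glucose and were confluent at the start. The hour of time point 3 and the glutamine level of the varied flask at that hour are not given in the labels, so no glutamine level was assigned to it. The labels also leave out what r stands for, a second hybridisation of the same RNA or RNA of a separate flask, so p-values may measure technical spread only.

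Of 15968 genes and unnamed probes on the array, 4890 had a value on both arrays of time point 3, 4335 of them with a gene symbol. A further set had a value on 1 array, so that 7307 were measured at least once at this time point. The values are log ratios, taken as log2, and a positive value likely means more of the transcript in the varied flasks. Each array was centred on its median probe, so every ratio is relative to that probe. The control RNA carried Cy3 and the experimental RNA Cy5 on every array, so in a ratio set against 0 a gene's dye bias and a true difference cannot be told apart. A constant dye bias cancels in differences between time points.

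Glutamine feeds the tricarboxylic acid cycle through glutamate and gives nitrogen to nucleotides and amino acids, and cultured hepatoma cells take it up in quantity. When an amino acid is scarce, the kinase GCN2 favours translation of the transcription factor ATF4, whose targets include amino acid transporters and synthesis enzymes. Folding stress in the endoplasmic reticulum raises ATF4 by another kinase and induces the chaperone BiP, the product of Hspa5.

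Both arrays of time point 3 resembled each other across genes, with a Pearson correlation of 0.621 and a Spearman correlation of 0.613 over 4890 genes, which are not independent replicates. The sign was the same on both arrays for 3521 genes (72% of them), 2024 higher and 1495 lower. At the other 6 time points with a usable pair, the Pearson correlation of the pair lay between 0.516 and 0.689. The SD of the difference between the arrays was 0.27, close to the SD of the mean ratio over genes, 0.276. Over genes, the ratios thus spread about as widely as the gaps between the arrays. Of the 299 genes with a mean ratio of 0.5 or more in size, all had 1 sign on both arrays, 99 of them higher and 200 lower. A cut on the mean of the same arrays leaves little room for opposite signs. The tail was longer on the lower side: 28 genes had a mean of -1 or less and 0 had a mean of 1 or more.

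**Figure D1:**
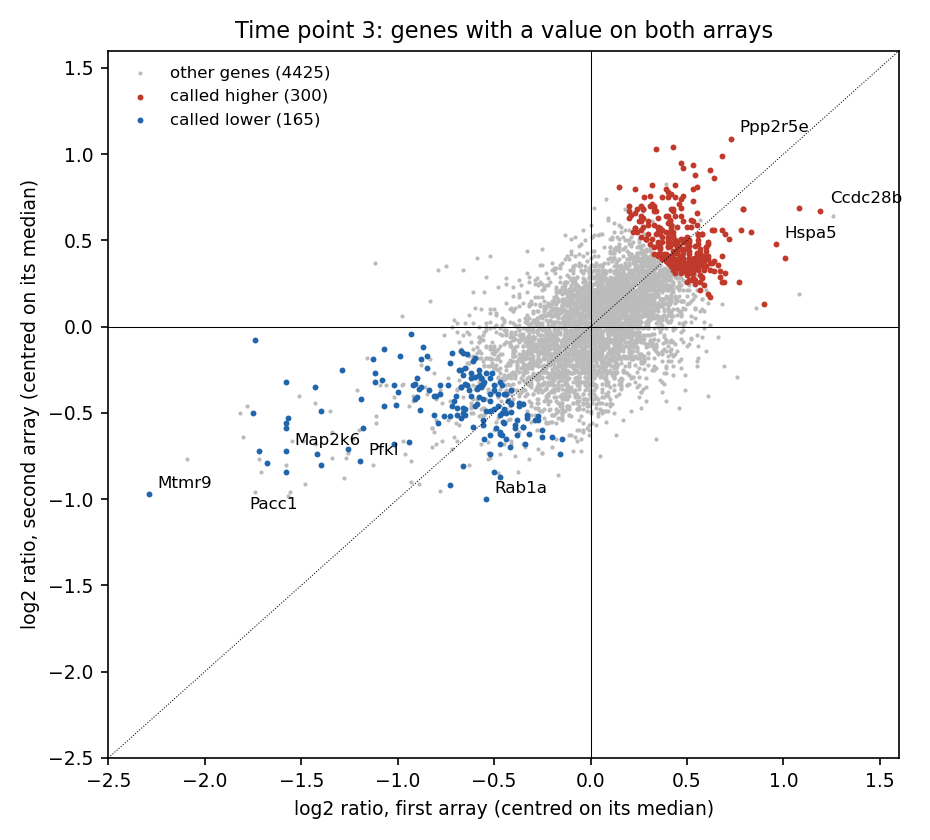
Log2 ratio of each of the 4890 genes on the first (x axis) and second array (y axis) of time point 3, both centred on their median, with 300 called genes in red (higher), 165 in blue (lower) and the dotted line of equality. The lowest genes lie above the dotted line because the first array gave them the more negative ratio, as for Mtmr9 at -2.29 and -0.97.

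Each array of time point 3 correlated better with the first array of time point 4 (0.703 and 0.636) than with its partner. Channel 2 of that time point 4 array is labelled as cells without glutamine, unlike the other arrays, and calls that rest on time point 4 are given with and without it below. Correlations with the arrays of time points 5 and 6 and with the second of time point 10 lay between 0.0093 and 0.127. Those with the first array of time point 10 were 0.341 and 0.332, and those with time point 11 were 0.249 and 0.216. Time points 5, 6, 10 and 11 were left out of the fit because each had a lone array or a pair whose arrays did not resemble each other. The spread for the tests came from the 14 arrays of time points 1, 2, 3, 4, 7, 8 and 9, and 3675 genes had enough values to be tested.

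The question of the first comparison was which transcripts differed between the glutamine-varied and the constant-glutamine flasks at time point 3. In the limma fit at an adjusted p under 0.05, 465 of 3675 genes (12.7%) were called, 300 higher (8.16%) and 165 lower (4.49%). The called higher genes had a median log2 ratio of 0.46 and the called lower genes one of -0.52, against a median of 0.08 over all genes tested. The typical standard error was 0.137. The balance of directions depended on the centring: it was 2370 higher and 41 lower without centring, where the median of all genes was 0.395, 649 and 177 with centring on neighbouring probe numbers, and 585 and 182 with arrays scaled and centred within blocks of probe numbers. The balance also turned with the array kept: calls were mostly higher without the first array and mostly lower without the second. The called lower genes had a median of -0.62 on the first array and -0.45 on the second, the called higher genes 0.47 and 0.46. A fit to all 20 arrays, with values needed on 16 or more of them, left 7 calls.

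The place of a probe on the probe list moved with the ratios. Blocks of 540 probe numbers held 13.1% of the variance on the first array of time point 3 and 10.7% on the second, and block medians ran from -0.29 to 0.27 on the first and from -0.17 to 0.20 on the second. In blocks 1 to 8, 110 of 712 genes tested were called higher and 12 lower. In blocks 25 to 32, 4 of 961 were called higher and 94 lower. With each block centred on its own median, 229 of the 300 higher genes and 119 of the 165 lower genes were called again, and 192 and 107 were called under block centring and under centring on the probe numbers within 40 as well. In the gene lists below, each named call that ended under either of these centrings is marked with its adjusted p.

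**Figure D2:**
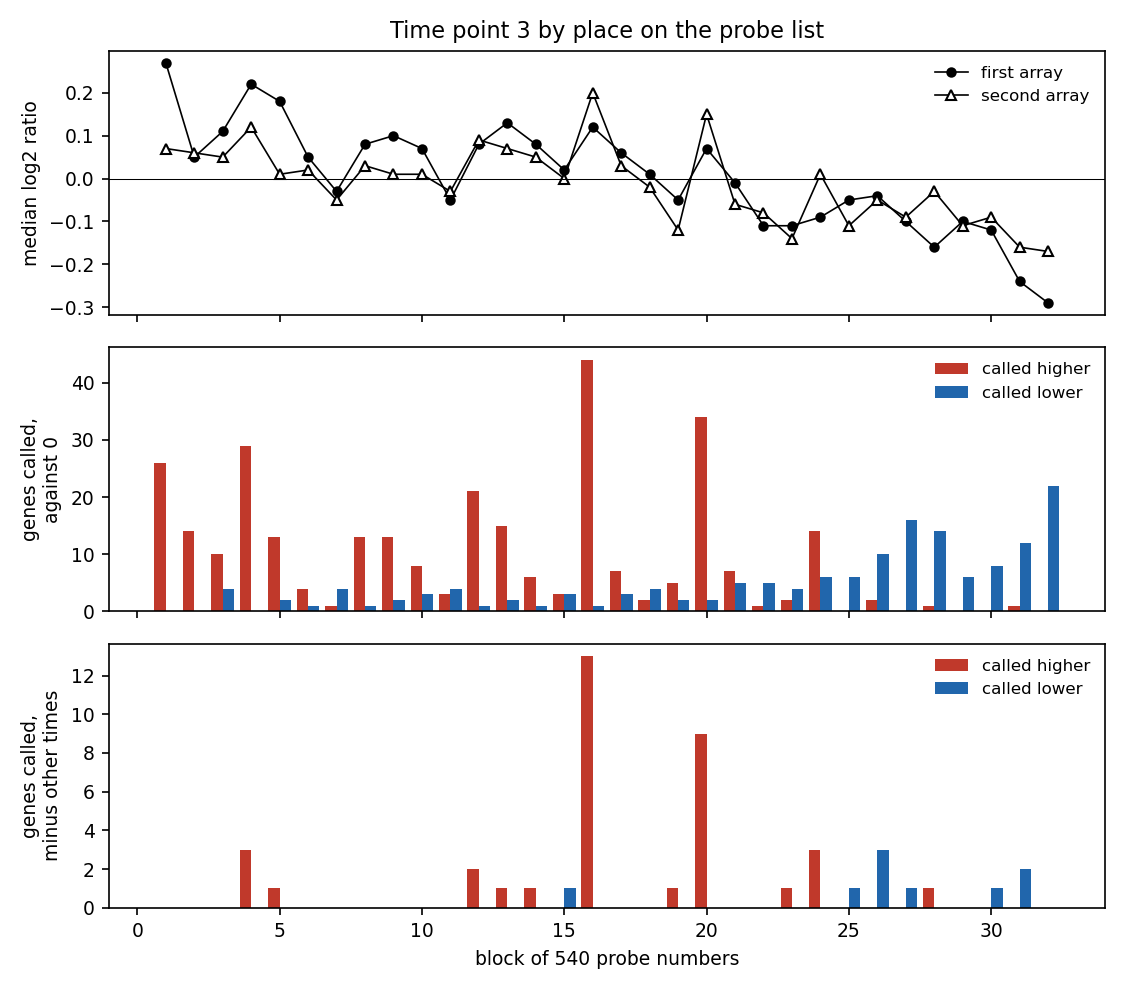
Median log2 ratio of each array of time point 3 in 32 blocks of 540 probe numbers (top), and genes called per block against 0 (middle) and minus the other 6 time points (bottom), with red bars for higher and blue for lower. Higher calls peak in blocks 16 and 20, with 44 and 34 against 0, and lower calls lie mostly in blocks 25 to 32.

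The lowest transcripts at time point 3 had no single shared role. Mtmr9, a myotubularin family member without phosphatase activity, had log2 ratios of -2.29 and -0.97, a mean of -1.63 (adjusted p = 1.04e-12). Pacc1, a proton-activated chloride channel, had ratios of -1.68 and -0.79, a mean of -1.235 (adjusted p = 1.09e-09). Map2k6, the kinase that activates p38 MAP kinases, had ratios of -1.58 and -0.72, a mean of -1.15 (adjusted p = 7.66e-08). For each of the 3 the first array was much the lower. Spats2 had a mean of -1.22, Ssbp2, a single-stranded DNA binding protein, one of -1.21, and Mcts2, a retrogene copy of a translation factor gene, one of -1.10. Ccdc125 (-1.085), the orphan receptor Gpr153 (-1.08), the acrosomal protein Acrbp (-1.07) and the unnamed probe 17148 (-1.125) complete the 10 lowest. In all 10 the first array was further from 0 than the second, by 0.6 to 1.32, and in 9 of 10 an array lay outside the 95% interval that limma gave for the mean. The size of these ratios is thus less certain than their sign.

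At the other end, Ccdc28b, a coiled-coil protein linked to cilia, had log2 ratios of 1.19 and 0.67, a mean of 0.93 (adjusted p = 6.09e-07). Ppp2r5e, a regulatory subunit of protein phosphatase PP2A, had ratios of 0.73 and 1.09, a mean of 0.91 (adjusted p = 6.48e-07). Il1r1, the signalling receptor of interleukin-1, had ratios of 1.08 and 0.69, a mean of 0.885 (adjusted p = 0.000125). No array was always the higher, and the gap between the arrays was 0.11 to 0.61 over the 10 highest genes. Bcap31, an endoplasmic reticulum membrane protein, averaged 0.835, the rhomboid protease Rhbdd1 0.765 and Pds5a, a regulator of the cohesin ring, 0.75. Gramd3, Krtap19-2, Mrpl17 (a protein of the large mitochondrial ribosomal subunit) and the unnamed probe 2118 each had a mean of 0.735. Ppp2r5e, Rhbdd1, Gramd3 and Krtap19-2 have their measured probe in block 16, where block medians were 0.12 and 0.20. All 20 of these highest and lowest genes were called again, in the same direction, with block centring and with centring on neighbouring probe numbers. In the fit to all 20 arrays (values on 16 or more), Ccdc28b, Ppp2r5e, Rhbdd1, Pds5a and Pacc1 remained called, each at an adjusted p of 0.0463.

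**Figure D3:**
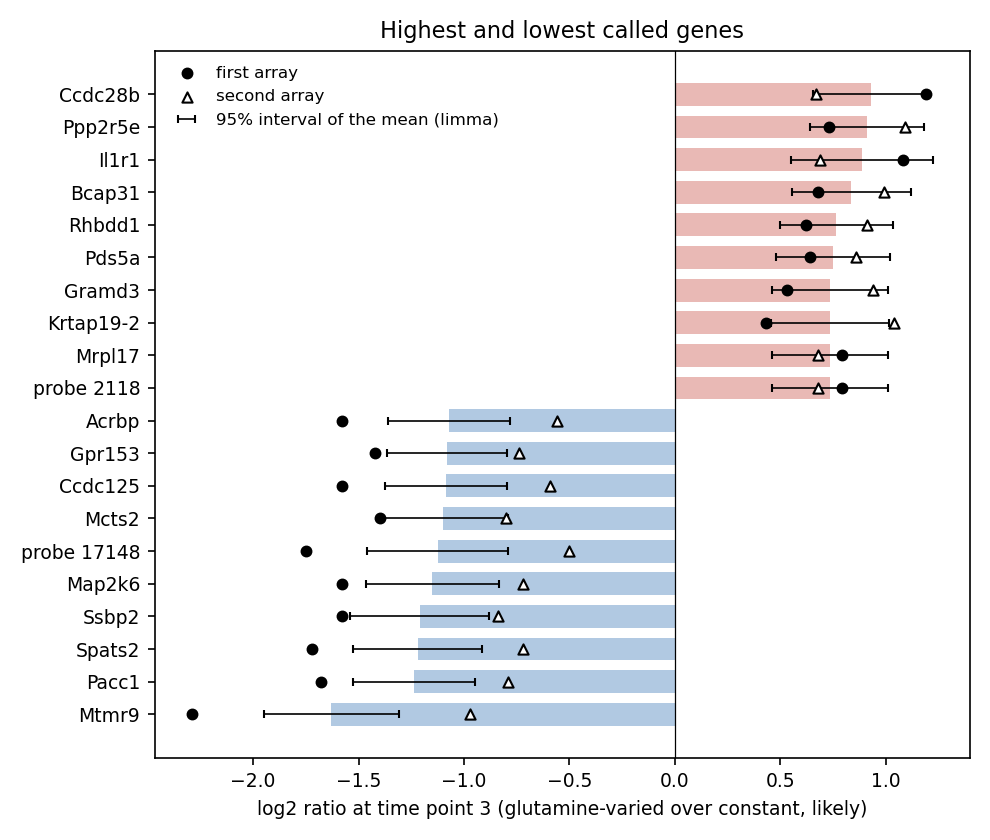
Log2 ratio at time point 3 (x axis) of the 10 highest and 10 lowest called genes, with bars for the mean, circles for the first array, triangles for the second and whiskers for limma's 95% interval. The lowest genes show a wider gap between the arrays (0.6 to 1.32) than the highest (0.11 to 0.61).

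Among glycolytic enzymes the called ratios at time point 3 were all negative. Of 9 tested, 0 were called higher and 4 lower (44.4%, against 12.7% of all genes). The list median was -0.34, against 0.08 over all genes, but it was -0.58 on the first array and -0.15 on the second. Without centring it was -0.02, with 2 called higher and 1 lower. Pfkl, the liver form of phosphofructokinase, the main control step of the pathway, had log2 ratios of -1.195 and -0.78 (mean -0.99, 2 probes, adjusted p = 6.77e-06). Tpi1, triosephosphate isomerase, had ratios of -0.69 and -0.47 (mean -0.58, adjusted p = 0.00232). Pklr, the liver pyruvate kinase, had ratios of -0.65 and -0.33 (mean -0.49, adjusted p = 0.0113). Each lay below 0 on both arrays. Gapdh, glyceraldehyde-3-phosphate dehydrogenase, was spotted 17 times. Its spots had a median of -0.64 on the first array (15 spots, range -1.08 to 0.11) and of -0.37 on the second (16 spots, range -0.73 to 0.37). Averaged over spots, Gapdh had ratios of -0.583 and -0.349 (mean -0.47, adjusted p = 0.019). Repeated spots of 1 gene on 1 array thus had an SD of 0.284 and 0.28, about as large as the gap between the arrays.

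The other glycolysis genes were not called: the lactate exporter Slc16a3 had a mean of 0.17, Aldoa 0.155, Pgk1 -0.235, Ldha -0.235 and Pgam1 -0.335. The count of the list was 0 higher and 4 lower with block centring and 0 and 5 with centring on neighbouring probe numbers. Tpi1, in block 32, where block medians were -0.29 and -0.17, had an adjusted p of 0.0678 with block centring, and Gapdh one of 0.0541 with the neighbours. In the comparison with the other 6 time points no glycolysis gene was called, and Pfkl lay at -0.35 (adjusted p = 0.371). Hif1a, the oxygen-regulated activator of many glycolysis genes, was called lower with ratios of -0.41 and -0.44 (mean -0.425, adjusted p = 0.0325). It was the 1 call among 4 hypoxia response genes tested (25%, against 12.7% of all genes).

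The amino acid response genes were mixed. Of 8 tested members of the ATF4 list, 1 was called higher and 1 lower (25%, against 12.7% of all genes). The list median was 0, against 0.08 over all genes. Slc3a2, the heavy chain of the LAT1 and related amino acid exchangers, had log2 ratios of 0.46 and 0.71 (mean 0.585, adjusted p = 0.00175). It was called again with block centring (0.473, adjusted p = 0.00439), with neighbouring probe numbers (0.335, adjusted p = 0.0104) and in the fit to all 20 arrays (adjusted p = 0.0463). Cebpb, a bZIP transcription factor, had ratios of -1.13 and -0.19 (mean -0.66, adjusted p = 0.00215), was much lower on the first array and was not called with block centring (adjusted p = 0.124). Ddit3, which encodes the stress factor CHOP, had ratios of 0.31 and 0.25 (mean 0.28, adjusted p = 0.178) and was not called, but it passed without centring (0.595, adjusted p = 0.00092), with block centring (0.377, adjusted p = 0.0264), scaled and centred within blocks (adjusted p = 0.0136) and with the neighbours (0.418, adjusted p = 0.00877). Sesn2, a stress-induced inhibitor of mTORC1, had ratios of 0.35 and 0.09 (adjusted p = 0.282). The light chain Slc7a5, partner of Slc3a2, had ratios of 0.01 and -0.03.

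Among 5 amino acid transporters tested, Slc3a2 was higher and the glycine transporter Slc6a9 lower, at -0.60 and -0.29 (mean -0.445, adjusted p = 0.0332), a call that was lost with block centring (adjusted p = 0.0949). These calls were 40% of the list, against 12.7% of all genes, and the list median was -0.22, against 0.08. Slc1a5, the main glutamine importer of many cultured cells, had ratios of -0.50 and -0.38 but too few values at other time points to be tested. Asns, asparagine synthetase, and Glul, glutamine synthetase, had no value on any array, and Slc38a2 had none at time point 3. Of 4 genes of glutamine and glutamate metabolism tested, 1 was called (25%, against 12.7% of all genes). It was Gad1, which makes GABA from glutamate, at 0.26 and 0.70 (mean 0.48, adjusted p = 0.0122, or 0.054 with the neighbours). Got1, the cytosolic aspartate aminotransferase, had ratios of 0.16 and -0.08, and Got2, its mitochondrial counterpart, -0.74 and -0.54, without a test.

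In the folding machinery, 1 of 5 endoplasmic reticulum chaperone genes tested was called (20%, against 12.7% of all genes). Hspa5 had log2 ratios of 0.96 and 0.48 (mean 0.72, adjusted p = 0.0016). Creld2 had ratios of 0.27 and 0.19, whereas the disulfide isomerases P4hb (-0.49 and -0.03) and Pdia6 (-0.31 on both) had negative ones, and none of the 3 was called. Of 8 cytosolic chaperones (12.5% called), Dnajb6, a co-chaperone of Hsp70, was called at 0.44 and 0.48 (adjusted p = 0.0156). Hspa8, the constitutive Hsp70, had ratios of 0.47 and -0.24, of opposite sign.

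The windows around the start sites of the called genes of the glycolysis, ATF4 and endoplasmic reticulum chaperone lists were searched on both strands for TGATGNAA (an ATF4 and C/EBP type motif), ACGTG (the core of the hypoxia response element) and TGANTCA (AP-1). TGATGNAA and TGANTCA can share their first 3 letters. The sequences are RefSeq promoters of GRCm38.p6, 300 bases each, and are shown for the called genes of these lists that held a match, in capitals. Slc3a2 (chr19:8713848-8714147, minus strand) and Gapdh (chr6:125165724-125166023, minus strand) held 1 ACGTG each, on the opposite strand. Hspa5 (chr2:34771840-34772139, plus strand) held ACGTG and TGANTCA, both as written.
Slc3a2: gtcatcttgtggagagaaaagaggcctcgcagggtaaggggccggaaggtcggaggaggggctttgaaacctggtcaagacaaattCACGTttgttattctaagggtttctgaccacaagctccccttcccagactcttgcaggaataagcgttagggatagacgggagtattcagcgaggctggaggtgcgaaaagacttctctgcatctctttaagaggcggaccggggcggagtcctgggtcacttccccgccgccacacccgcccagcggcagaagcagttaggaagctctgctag
Gapdh: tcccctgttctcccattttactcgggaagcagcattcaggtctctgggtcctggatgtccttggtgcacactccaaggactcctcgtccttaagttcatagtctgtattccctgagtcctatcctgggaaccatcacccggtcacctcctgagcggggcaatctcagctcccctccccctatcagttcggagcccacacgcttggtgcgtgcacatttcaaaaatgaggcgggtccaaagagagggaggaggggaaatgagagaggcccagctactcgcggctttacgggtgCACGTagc
Hspa5: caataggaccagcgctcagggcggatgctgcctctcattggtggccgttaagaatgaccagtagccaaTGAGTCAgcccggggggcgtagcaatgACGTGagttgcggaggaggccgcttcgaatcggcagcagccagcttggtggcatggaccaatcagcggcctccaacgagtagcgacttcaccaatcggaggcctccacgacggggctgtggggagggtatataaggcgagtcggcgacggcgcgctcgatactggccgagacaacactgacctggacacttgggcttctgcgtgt
The letters of these motifs were not in the windows of Pfkl, Tpi1, Pklr and Cebpb. ACGTG was in 27.3% of 256 promoters of called higher genes and 18.6% of 156 promoters of called lower genes, against 24.6% of 3294 promoters of all tested genes. TGATGNAA was in 1.95% and 1.92%, against 2.28%, and TGANTCA in 4.3% and 5.13%, against 6.07%. In the whole promoter table of 32851 windows the shares were 19.6% for ACGTG, 3.97% for TGATGNAA and 7.81% for TGANTCA. A match is a description of the letters only.

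The called shares of the tricarboxylic acid cycle and respiratory chain lists were near the 12.7% of all genes. Of 12 tricarboxylic acid cycle genes tested, 1 was called (8.33%), Mdh2, mitochondrial malate dehydrogenase, at 0.40 and 0.52 (mean 0.46, adjusted p = 0.0148), and the list median of 0.09 was that of all genes to within 0.01. Of 29 respiratory chain and ATP synthase genes, 2 were called higher and 2 lower (13.8%), all of them in cytochrome c oxidase or its assembly. Cox5b had ratios of 0.34 and 1.03 (mean 0.685) and Cox7a2l, a factor of supercomplex assembly, had 0.51 and 0.40 (mean 0.455). Cox6a1 had ratios of -0.67 and -0.35 (mean -0.51), and Cox7a2 had -0.93 and -0.04 (mean -0.485). Cox5b was not called with the neighbours (adjusted p = 0.0948). With block centring the counts were 3 higher and 0 lower in the cycle list and 3 and 4 in the respiratory list. No fatty acid oxidation gene of 7 was called, the largest ratios being those of Etfa (-0.35, adjusted p = 0.0744), an electron carrier subunit, and Acads (0.325, adjusted p = 0.106), a short-chain dehydrogenase. Both were called with the neighbours, at adjusted p of 0.0455 and 0.0422. Of 4 lipid synthesis genes, Acacb, acetyl-CoA carboxylase 2, was called higher at 0.26 and 0.64, but not with the neighbours (adjusted p = 0.0944). The 1 sterol gene tested, Ebp, had ratios of -0.02 and -0.01.

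Genes of protein synthesis and breakdown had calls in both directions. Of 40 cytosolic ribosomal protein genes tested, 5 were called higher and 2 lower (17.5%, against 12.7%), and the median was 0. Rpl11 (0.55 and 0.81) and Rpl12 (0.23 and 0.80) were among the higher, while Rps16 (-0.80 and -0.40) and Rpl39 (-0.99 and -0.17) were lower. Rpl39 was not called with block centring (adjusted p = 0.0872) or with the neighbours (adjusted p = 0.0585). With the neighbours Rps16 (adjusted p = 0.153) and Rpl12 (adjusted p = 0.0621) were not called either, and the list had 3 higher and 0 lower calls. Ribosomal protein genes have many processed copies, so that 1 probe may read several. Of 17 mitochondrial ribosomal protein genes, Mrpl17 and Mrps16 (0.50 and 0.48) were called higher. Of 17 translation factors, Eef2, elongation factor 2, was called higher (0.41 and 0.37) and Pabpc1, the poly(A) binding protein, lower (-0.88 and -0.19, adjusted p = 0.143 with block centring). The tRNA synthetases Sars and Nars, the 2 tested, had means of 0.215 and 0.145 and were not called. Of 20 proteasome and ubiquitin genes, 2 were called higher and 3 lower: the proteasome subunits Psmd11 (-0.885 and -0.485) and Psmb2 (-0.92 and -0.34) and the ubiquitin-conjugating enzyme Ube2d1 (-0.90 and -0.30) were lower. The immunoproteasome subunit Psmb9 (0.35 and 0.49) was higher, also as the 1 call among 8 interferon response genes. It was not called with block centring (adjusted p = 0.0774), where the proteasome list had 0 higher calls, or with the neighbours (adjusted p = 0.187), where the interferon list had 0 calls.

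Cell cycle, growth and signalling genes were measured in several lists. Of 18 cell cycle and DNA replication genes, 4 were called higher and 0 lower (22.2%, against 12.7%), with a median of 0.13. They included the replication factor subunit Rfc1 (0.63 and 0.37), the mitotic phosphatase Cdc25c (0.48 and 0.40), the proliferation marker Mki67 (0.29 and 0.51) and the kinetochore protein Ndc80 (0.47 and 0.31). Rfc1 and Cdc25c were lost with block centring (adjusted p = 0.0566 and 0.0845). Of 17 MAP kinase genes, Mapk13 (0.39 and 0.64), Mapk9 (0.70 and 0.31) and Map3k14 (0.43 and 0.55) were called higher, and Map2k6 lower. Mapk9 was not called with block centring (adjusted p = 0.0707) or with the neighbours (adjusted p = 0.0786). Akt1, a kinase of insulin signalling, was the 1 call of 8 in its list, lower at -0.46 and -0.34 and not called with block centring (adjusted p = 0.222). Gadd45b, a stress-induced growth inhibitor that stands in the p53 and immediate early lists, was called at 0.43 and 0.36. Srf, the serum response factor, was called at 0.29 and 0.51, and both of these calls were lost with block centring (adjusted p = 0.104 and 0.126). All genes also leaned higher, 300 to 165, a balance that depended on the centring and on the array kept. No apoptosis gene of 7 was called, and Bad, a death-promoting BCL2 partner, had the largest mean, 0.375 (adjusted p = 0.0629). Bad was called with block centring (0.415, adjusted p = 0.014) and with the neighbours (0.455, adjusted p = 0.00838). Neither clock gene tested was called: Nr1d1 had ratios of 0.51 and -0.10 and Per1 of 0.25 and -0.06, of opposite sign on the arrays.

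Structure and traffic genes held some of the larger ratios. Of 49 vesicle traffic and Rab genes, 6 were called higher and 5 lower (22.4%, against 12.7%), with a median of 0.07. The coatomer subunit Copz2 (-1.43 and -0.35), the Rab1a GTPase of transport from the endoplasmic reticulum to the Golgi (-0.54 and -1) and Vps9d1 (-0.84 and -0.37) were lower. Rab1a was lower on the second array, unlike most of the low genes. Sec31a, a coat protein of export vesicles, was higher (0.78 and 0.56). All 4 were called with block centring too. Of 26 histone and chromatin genes, the histone variant H2al3 (-1.57 and -0.53) and the remodeller Chd4 (-0.70 and -0.40) were lower, whereas the demethylase Kdm5d (0.42 and 0.77) and the DNA-bending protein Hmgb2 (0.43 and 0.52) were among 3 called higher. Hmgb2 was not called with block centring (adjusted p = 0.0814). Of 36 cytoskeleton genes, 4 were higher and 2 lower, and the intermediate filament genes Vim (0.33 and 0.59), Krt15 (0.30 and 0.54) and Krt84 (0.20 and 0.63) and the myosin light chain Myl10 (0.47 and 0.35) were the higher ones. Block centring ended the calls of Vim (adjusted p = 0.0949), Krt84 (adjusted p = 0.11) and Myl10 (adjusted p = 0.0752), and with the neighbours these were 0.214, 0.728 and 0.622. Of 25 matrix and adhesion genes, 1 was called, Col9a1, lower at -0.32 and -0.62. The direction of this list turned with the centring: it had 2 higher and 1 lower calls with block centring, and 7 higher and 0 lower with the neighbours, where Col9a1 had an adjusted p of 0.142. Of 15 splicing genes, Snrpg (0.34 and 0.54) was called higher, but not with block centring (adjusted p = 0.0571).

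Secreted liver protein and drug conjugation genes were called at shares near the 12.7% of all genes. Of 12 secreted liver protein genes (16.7% called), the coagulation factor F9 (0.48 and 0.49) and the apolipoprotein Apoc3 (0.53 and 0.39) were called higher, Apoc3 not with block centring (adjusted p = 0.0681). No acute phase or cytokine gene of 5 was called, the chemokines Ccl2 (mean 0.35) and Cxcl1 (mean 0.23) having the largest means. Of 20 cytochrome P450 and conjugation genes (15% called), the glucuronyl transferases Ugt2b1 (-0.45 and -0.48) and Ugt1a6a (-0.68 and -0.25) were lower and the glutathione transferase Gstt2 (0.57 and 0.26) was higher. Gstt2 was also the 1 call among 12 antioxidant genes, and Atp6v0a1, a proton pump subunit (0.49 and 0.51), the 1 call among 15 lysosome genes. Of 15 hepatocyte marker genes with a probe, 7 had values on both arrays and 6 were tested, with ratios from -0.18 to 0.20 and none called. Ratios give no level, so they cannot show whether the markers were high or low in these cells. Markers of other liver cells were sparse: Vim of 5 fibroblast markers, Aif1 (0.37 and 0.39), the 1 macrophage marker tested, and Kdr (0.51 and 0.37), the 1 endothelial marker tested, were called higher, and Krt19 (-0.35 and -0.45) of 4 cholangiocyte markers lower. Krt19 was not called with block centring (adjusted p = 0.0554).

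**Figure D4:**
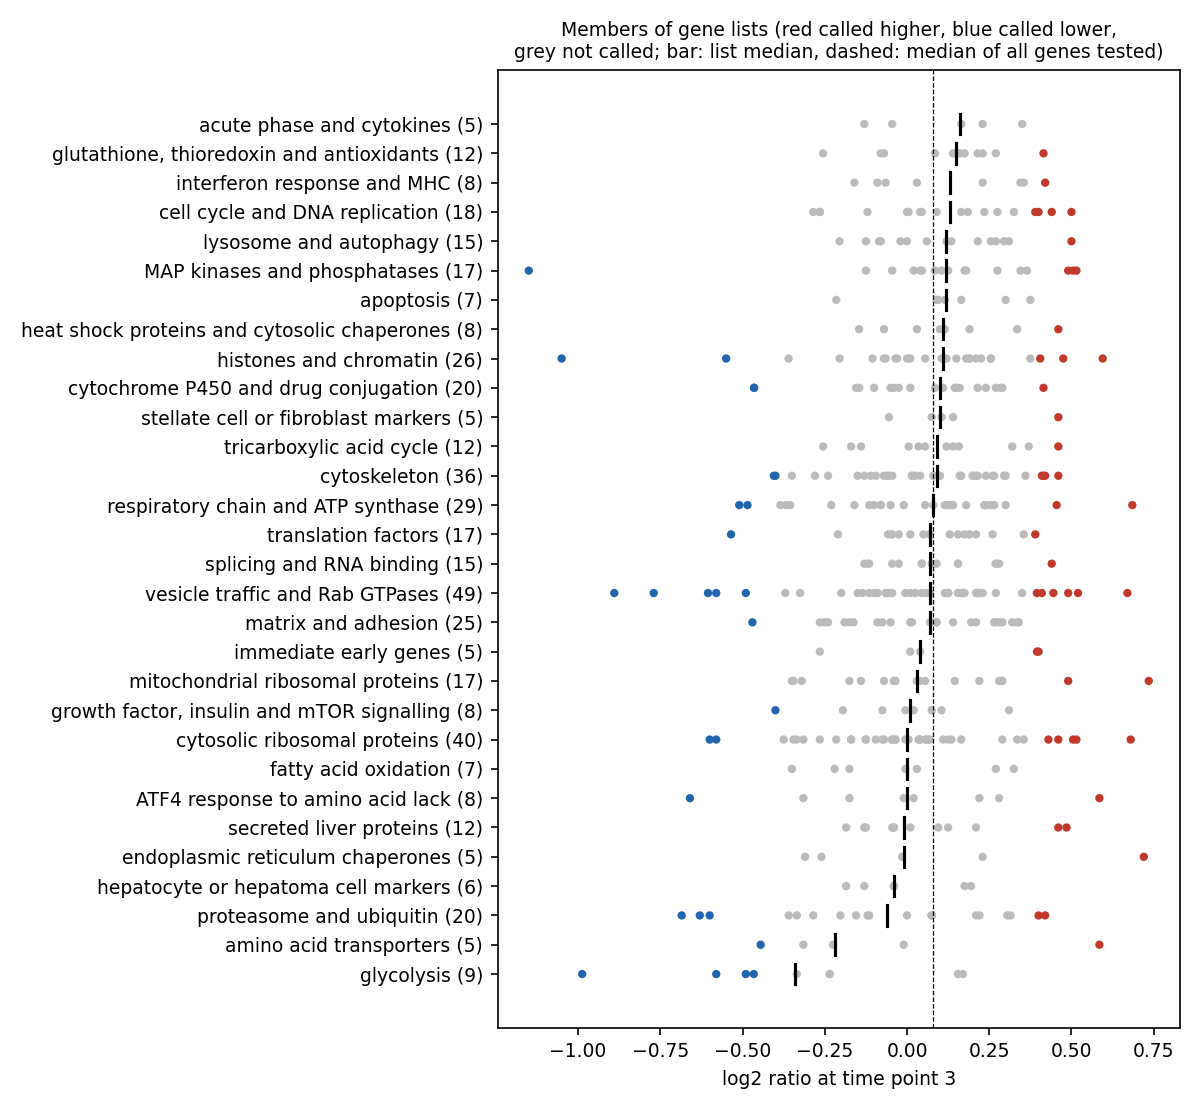
Log2 ratio at time point 3 (x axis) of every tested member of the lists with 5 or more, ordered by list median (black bar), with called genes in red (higher) or blue (lower), others in grey, and the median of all genes as a dashed line. The glycolysis list has the lowest median (-0.34, with -0.58 on the first array and -0.15 on the second), and most medians lie close to the 0.08 of all genes.

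The genes called at time point 3 mostly had the same sign at other times, which a lasting difference and a lasting dye bias would both give, and which cannot be told apart. Of the 300 higher genes, 292 were above 0 at time point 4 and 196 at time point 1, the most and the fewest of the other 6. Of the 165 lower genes, 160 were below 0 at time point 4 and 123 at time point 1. The lower genes had a median of -0.52 at time point 3, the same as at time point 4, against -0.20 to -0.28 at the other 5. The sign was the same at all 6 other time points for 143 higher genes (47.7%), where 24.7% of all tested genes were above 0 at all 6, and for 70 lower genes (42.4%), where 7.92% were below 0 at all 6.

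The second comparison asked what set time point 3 apart from the other 6 time points. The limma fit called 46 of 3675 genes (1.25%), 37 higher (1.01%) and 9 lower (0.245%). With block centring 3 were called, all higher, with centring on neighbouring probe numbers 7, all higher, and with all 20 arrays and values on 16 or more 0. Without the time point 4 array with another channel 2 label 84 were called, among them all 44 of the 46 that then had a value; Acrv1 and Scd3 had none. Of the 37 higher genes, 13 have their measured probes in block 16 and 9 in block 20. Leaving out time point 4 gave 107 calls, time point 1 gave 24 and time point 8 gave 22. The direction turned with the array kept: calls were mostly higher without the first array of time point 3 and mostly lower without the second. Of the 37, 26 were also called higher against 0, 11 were not called there, and 35 had their highest time point mean at time point 3. All 9 lower genes were also called lower against 0, and 8 had their lowest mean there. Both counts of extreme means come from the values that chose these genes, so they are not further evidence.

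Pds5a and the ferritin light chain pseudogene Ftl2-ps were the named genes called under both the array and the block centring. Pds5a averaged 0.75 at time point 3, against -0.02 over the other 6, a difference of 0.77 (adjusted p = 0.00206), or 0.663 with block centring (adjusted p = 0.00941) and 0.583 with neighbouring probe numbers (adjusted p = 0.0194). Its mean at time point 7, -1.195, was far below the rest. Ftl2-ps averaged 0.605 at time point 3, against -0.18 over the others, a difference of 0.79 (adjusted p = 0.00195), or 0.613 with block centring (adjusted p = 0.00941) and 0.404 with the neighbours (adjusted p = 0.105). A pseudogene probe may also read the parent ferritin transcript. The unnamed probe 12059, chosen after its values were seen, was the third gene called with block centring (0.658, adjusted p = 0.0179).

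Slc3a2 was 0.54 above the other time points (0.585 at time point 3, against 0.04 over the others, adjusted p = 0.0362), with its highest mean at time point 3, but it lies in block 20 and had an adjusted p of 0.214 with block centring. Vim differed by 0.71 (0.46, against -0.25, adjusted p = 0.00597) and Scd3, a stearoyl-CoA desaturase with near-identical relatives, by 0.75 (0.475, against -0.28, adjusted p = 0.0041). Both were lost with block centring, at adjusted p of 0.254 and 0.0685. The unnamed probes 8618 (0.75) and 8599 (0.605) and Ppp2r5e (0.68) in block 16, Acrv1 (0.73) and Ccdc28b (0.69) in block 4 and Il1r1 (0.68) completed the 10 largest positive differences among genes with 1 sign on both arrays. Acrv1 itself averaged 0.115 at time point 3 (limma adjusted p = 0.623 against 0), against -0.61 over the others. Time point 7 had the lowest mean of Ftl2-ps (-0.94), Vim (-0.82) and Scd3 (-0.82, a lone array), while Ppp2r5e lay there at -0.03. On the lower side, H2al3 differed by -0.69 (-1.05 at time point 3, against -0.36, adjusted p = 0.0174) and Rps16 by -0.69 (-0.60, against 0.09, adjusted p = 0.0115). Rps16 was near or above 0 at most other times. Csnk1g2, a casein kinase, differed by -0.66, the translesion polymerase Polk by -0.62 and Adamtsl4 by -0.61, and 2810471M01Rik, Tspan11, probe 13598 and Tmem9 by -0.60 to -0.54. None of these 9 was called with block centring.

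**Figure D5:**
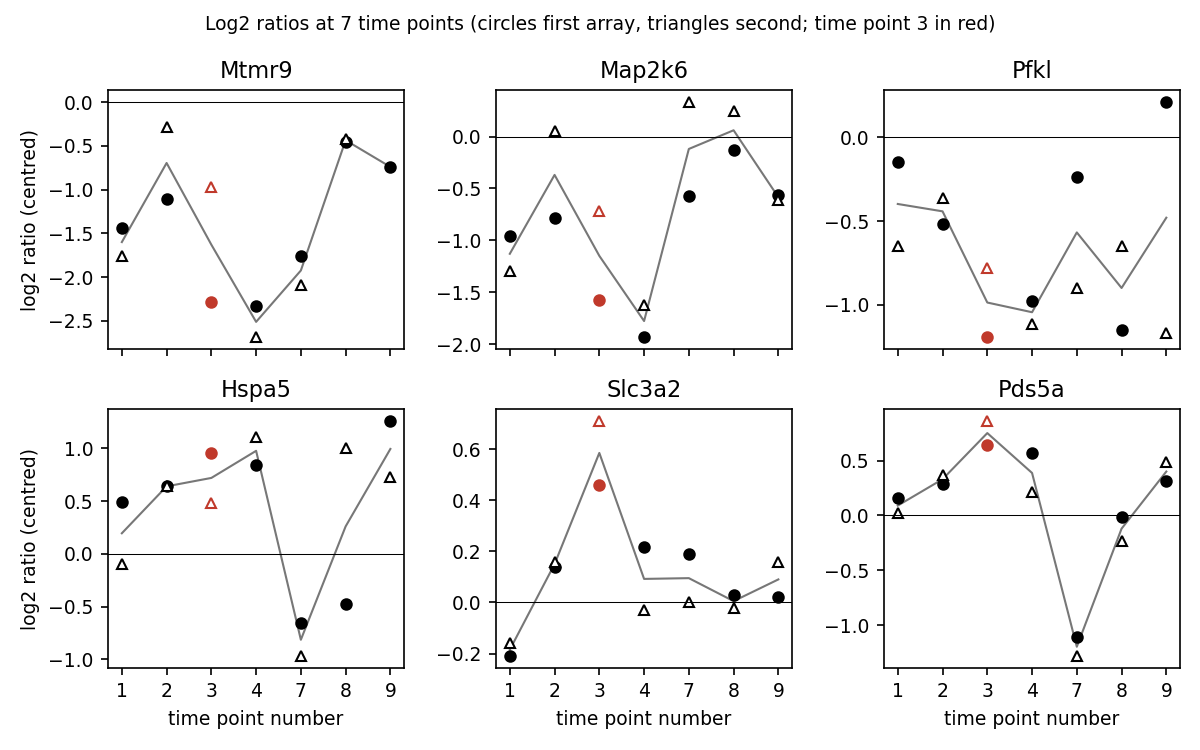
Log2 ratios of 6 genes on each array (circles first, triangles second, time point 3 in red) and their means (line) at time points 1, 2, 3, 4, 7, 8 and 9, with time points 5 and 6 not drawn. Mtmr9, Map2k6, Pfkl and Hspa5 are further from 0 at time point 4 than at time point 3, while Slc3a2 and Pds5a have their highest mean at time point 3.

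Against its neighbours in the series, time point 3 differed little. No gene of 3675 was called between time points 3 and 2 (0%), where 173 had an unadjusted p under 0.05 and the smallest adjusted p was 0.333. The smallest p on the higher side belonged to probe 8618, Usp9x (0.70, adjusted p = 0.458), Rhbdd1, Prex2 (0.675) and Ftl2-ps (0.63). On the lower side they belonged to Mtmr9, at -1.63 at time point 3 and -0.695 at time point 2 (difference -0.935, adjusted p = 0.333), Map2k6 (-1.15 and -0.37), Mcts2, Spats2 and probe 15111. These values are given as not called, and a p above the threshold does not show equal levels. Without the second array of time point 3, 9 genes were called lower.

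Between time points 3 and 4 the fit called 6 genes higher (0.163%) and 0 lower, with 267 at an unadjusted p under 0.05. Terf1, a protein that binds telomere repeats, had log2 ratios of 0.90 and 0.13 at time point 3, against -0.575 and -0.90 at time point 4, a difference of 1.25 (adjusted p = 5.85e-05). The call held with block centring (1.355, adjusted p = 0.00405) but not with neighbouring probe numbers, where 0 genes were called. Ube2d1 had ratios of -0.90 and -0.30 at time point 3, against -1.075 and -1.93 (difference 0.90, adjusted p = 0.0391). Bcl7b, a subunit of SWI/SNF chromatin remodellers, had ratios of -0.13 and 0.24, against -0.935 and -0.72 (difference 0.88, adjusted p = 0.0245). Psma7, a proteasome subunit, differed by 0.88, Rarg, a retinoic acid receptor, by 0.87 and Septin5 by 0.84. All 6 were thus lower at time point 4. On the lower side Rps16 (-0.67), probes 15794 (-0.67) and 13620 (-0.65), Rpl15 (-0.61) and Chrd (-0.62) had the smallest p and were not called (adjusted p of 0.243 to 0.402). Without the time point 4 array whose channel 2 is labelled as cells without glutamine, 14 genes were called, 12 higher and 2 lower. Terf1 then differed by 1.415 (adjusted p = 1.74e-05), Ube2d1 by 1.33 (adjusted p = 6.93e-05), Rarg by 1.115, and Psma7 and Septin5 by 1.01 each, all still called. Bcl7b was no longer called (0.775, adjusted p = 0.146), and Rps16 was called lower (-0.95, adjusted p = 0.0249). Without the second array of time point 3, 2 were called.

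Genes with too few values for a test also held large ratios. Olig1 had -2.09 and -0.77, the unnamed probe 13110 -1.74 and -0.96, and Fosb, an immediate early AP-1 subunit, -1.71 and -0.84. On the higher side were Anxa6, a membrane-binding annexin (1.26 and 0.64), the glutamate receptor subunit Gria3 (1.08 and 0.19) and probe 8636 (0.39 and 0.83). Jdp2, a bZIP repressor of the ATF4 list that was chosen for mention after its values were seen, had -1.80 and -0.64.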

How the data were processed

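Per the labels' protocols, total RNA of control flasks was labelled with Cy3 and that of experimental flasks with Cy5 and hybridised to spotted DNA arrays. The values the authors deposited, 1 column per array, were read as log2 ratios. For base, direction and normalization the sources used here give nothing. Base 2 and experimental over control are assumptions. Deposited medians of the time point 3 arrays were 0.29 and 0.34, with values for 6565 (38%) and 6058 (35.1%) of 17280 probes. Spot intensities were not used here.

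Each array was centred on its median. The platform annotation gave 14718 probes 1 symbol and 1 probe several, and 2562 had none that could be used. Of the probes with a symbol, 14445 matched a reference gene table. Probes of 1 symbol were averaged. Genes needed both arrays of time point 3, 1 or more at each other time point and 10 of 14 in all. limma 3.58.1 in R 4.3.3 fitted a mean per time point, with eBayes and Benjamini-Hochberg adjustment over 3675 genes. The number of arrays limits the precision. The fit was run on simulated data with independent noise and without block patterns or dye bias, so the simulation does not bear on either.

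Named are the 10 highest and 10 lowest called genes with 1 sign on both arrays (against 0, and minus the other 6 time points), the 3 highest and lowest called against time points 2 and 4, or the 5 of smallest p where under 5 were called, as many as 4 called genes per list (the 2 largest ratios where none was called), the 3 highest and lowest untested genes, and Asns, Glul, Ddit3, Slc38a2 and Slc1a5. Members, lists and tests were chosen with earlier results of these data known. Alternatives changed the centring, scaling, filter, arrays, spread, probes and pairing, and 2 centrings were added after seeing the data.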

Additional observations from a re-analysis of the deposited data

Results flagged for a closer look

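Differences between time points that passed the limma test of the difference itself are listed here. Time point 3 differed from the other 6 time points in 46 genes and from time point 4 in 6 genes.

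Listed first are genes that were named for a difference between time points. Against the other 6 time points, their log2 differences were 0.79 for Ftl2-ps, 0.77 for Pds5a, 0.75 for probe 8618, 0.75 for Scd3, 0.74 for Bcl7b, 0.73 for Acrv1, 0.71 for Vim, 0.69 for Ccdc28b, 0.68 for Ppp2r5e, 0.68 for Il1r1, 0.6 for probe 8599, 0.58 for Terf1 and 0.57 for Rhbdd1. On the lower side they were -0.69 for H2al3, -0.69 for Rps16, -0.66 for Csnk1g2, -0.62 for Polk, -0.61 for Adamtsl4, -0.6 for 2810471M01Rik, -0.58 for Tspan11, -0.56 for probe 13598 and -0.54 for Tmem9. Of these 22, Ftl2-ps and Pds5a were called with block centring, and Pds5a and Bcl7b with centring on neighbouring probe numbers. Genes named elsewhere in the text passed too: 0.58 for Cox5b, 0.57 for Psmb9, 0.56 for Gramd3, 0.54 for Slc3a2 and 0.54 for probe 12059. Among those, probe 12059 was called under both of these centrings and the rest under neither. The part of the place on the array in the others was not tested beyond these counts. Acrv1, Bcl7b and probe 8599 were not called against 0. They averaged 0.115, 0.055 and 0.335 at time point 3, against -0.61, -0.69 and -0.27 over the other 6 time points.

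Against time point 4, the log2 differences were 1.25 for Terf1, 0.9 for Ube2d1 and 0.88 for Bcl7b. Terf1 was called with block centring and none of the 3 with centring on neighbouring probe numbers.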

How the results depend on the processing

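Of the genes named in the text, no called value changed its sign under the alternatives compared by gene, which leave out the fit of each probe on its own. Zc3hav1, however, called higher at 0.445, lay at -0.005 with centring on neighbouring probe numbers. The correlation of the arrays stayed between 0.621 and 0.636. For time point 3 against 0 (465 calls), the count was 2411 without centring, 826 with centring on neighbouring probe numbers, 767 with arrays scaled and centred within blocks, 7 with all 20 arrays and values needed on 16 or more (both changed together), and 0 with the 2 arrays alone, which leave 1 degree of freedom. Leaving out a replicate of time point 3 gave 65 to 107. For time point 3 minus the other 6 time points (46 calls), the count was 5 without centring, 3 with block centring, 7 with neighbouring probe numbers, 3 scaled and within blocks and 0 with all 20 arrays. It was 24 without time point 1, 107 without time point 4, 22 without time point 8 and 84 without the time point 4 array with another channel 2 label, and leaving out a replicate gave 18 to 22. Against time point 2 (0 calls), leaving out a replicate gave 0 to 9. Against time point 4 (6 calls), the count was 1 without centring, 2 with block centring, 1 scaled, 0 with neighbouring probe numbers, 1 scaled and within blocks, 0 with all 20 arrays and 14 without the labelled array, and leaving out a replicate gave 2 to 7. The causes were not tested.

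With the r arrays as a replicate block the 4 counts were 461, 49, 0 and 8. The correlation of second minus first array between time point 3 and the others lay between -0.218 and 0.0299. Over all 21 pairs of time points it ran from -0.432 to 0.332. These values cannot show what the r of the titles stands for. Of the named genes, 374 values against 0 over the alternatives compared by gene no longer passed the threshold and 28 newly passed it. Without intensities, signal over background could not be judged, and a lone array was assumed to vary like the other time points.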
